A study of Homo sapiens with 12 samples.

Results

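The genes described here are 10 markers and regulators of epithelial to mesenchymal transition, taken by symbol from the 19677 genes of the count tables: CDH1, EPCAM, CDH2, VIM, FN1, ZEB1, ZEB2, SNAI1, SNAI2 and TWIST1. Their levels were read in CAOV3, an established human ovarian cancer cell line, under an ascites and a drug treatment. The control cells received the solvent DMSO. The ascites group received 10% ovarian cancer ascites, the fluid that gathers in the abdomen in this disease, with DMSO for 16 h. The bezafibrate group received 200 uM bezafibrate, a fibrate drug that activates PPAR nuclear receptors, for 16 h, and the combination group received the drug and the ascites for 16 h. Each group held 3 libraries, numbered 1 to 3 in the labels. DMSO is named only for both groups without the drug, and no duration is given for the control, so the drug and any difference in solvent cannot be told apart. Whether replicates were separate cultures is not given in the sources used here, and p-values then measure only the spread between these libraries, which may be technical. The number of ascites samples used is likewise not given there.

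In this transition, epithelial cells loosen their junctions and take on properties of migratory mesenchymal cells. CDH1 (E-cadherin) and EPCAM join epithelial cells, whereas CDH2 (N-cadherin), the intermediate filament protein VIM (vimentin) and the matrix glycoprotein FN1 (fibronectin) mark the mesenchymal side. ZEB1, ZEB2, SNAI1, SNAI2 and TWIST1 encode transcription factors that bind E-boxes in DNA, and the ZEB and SNAI proteins are known repressors of CDH1; in ovarian cancer, cells in ascites often carry epithelial and mesenchymal markers together.

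Total counts per library ran from 11831093 to 18762759. Of the 10 genes, 8 passed the filter on low counts and were tested; CDH2 and TWIST1 did not pass. On the first principal component, which held 37.0% of the variance, the libraries with the drug lay apart from those without it. On the second, which held 9.88%, combination replicate 3 lay at -22.4 while the other 11 libraries lay between -4.37 and 9.84. Not all defining markers of serous ovarian epithelium were present: SOX17 had 0 counts, MUC16 10 and WFDC2 2 over the 12 libraries, and group means of PAX8 were between 0.378 and 1.11 CPM. KRT8 and KRT18, keratins of simple epithelia, had group means from 2914 to 3129 and from 1720 to 1845 CPM. Others of the same serous list were also expressed: KRT7 had group means from 762 to 1188 CPM, KRT19 from 595 to 716 and CLDN4 from 122 to 196. MECOM had 30.5 to 38.9 CPM and CLDN3 1.94 to 2.83. CDH17, a cadherin known from liver and intestine, had group means from 171 to 246 CPM and CDX2, a factor of intestinal epithelium, from 10.9 to 13.6. These levels leave the labelled identity of the cells in doubt, and it was not tested otherwise. Several markers of other cell types had no counts. PTPRC, CD163, TYROBP, CD3E, S100A8 and S100A9 of leukocytes, PPBP, PF4 and GP9 of platelets and KDR of endothelium had 0 counts in every library. The other markers of these lists had some counts over the 12 libraries. For leukocytes these were CD14 460, LYZ 123 and CSF1R 13, and for blood HBA1 94, HBA2 51 and HBB 15. For endothelium they were PECAM1 75, TIE1 21, CLDN5 17, VWF 14 and CDH5 1. The mesothelial markers had counts too: DES 269, CALB2 149, UPK3B 62, LRRN4 5, BNC1 4 and KRT5 3. Of the 9 fibroblast markers POSTN and FAP had 0 counts over the 12 libraries, THY1 1, COL1A2 2, DCN 3 and PDGFRB 45. LUM had group means from 162 to 184 CPM and made up most of the sum of the 9. That sum ranged from 192 to 197 CPM in control, 186 to 193 with ascites, 167 to 177 with bezafibrate and 159 to 177 with both. With the drug averaged over ascites, none of the 2 tested markers each of mesothelium, leukocytes and blood was called by edgeR. No endothelial marker passed the filter, and of the 8 tested serous epithelial markers 4 rose, PAX8, KRT7, KRT19 and CLDN4, and MECOM fell.

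Promoter sequences of RefSeq (GRCh38.p14) were at hand for 5 of the 10 genes, CDH2, VIM, FN1, ZEB1 and ZEB2. The 250 bases before the start are shown for VIM, FN1 and ZEB2, the 3 of these whose RNA changed with the drug (values follow), so that the DNA upstream of genes that moved in opposite directions can be compared. Each is written 5′ to 3′ on the gene's own strand, with capitals marking an E-box (CANNTG), a cAMP response element (TGACGTCA) or a GC box (GGGCGG) on either strand. VIM lies on the plus strand at chr10:17227991-17228240, FN1 on the minus strand at chr2:215436069-215436318 and ZEB2 on the minus strand at chr2:144520120-144520369.
VIM: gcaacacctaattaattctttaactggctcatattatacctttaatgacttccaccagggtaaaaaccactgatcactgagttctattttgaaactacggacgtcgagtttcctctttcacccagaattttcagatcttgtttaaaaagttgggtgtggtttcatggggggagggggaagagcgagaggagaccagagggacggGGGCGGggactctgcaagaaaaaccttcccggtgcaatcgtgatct
FN1: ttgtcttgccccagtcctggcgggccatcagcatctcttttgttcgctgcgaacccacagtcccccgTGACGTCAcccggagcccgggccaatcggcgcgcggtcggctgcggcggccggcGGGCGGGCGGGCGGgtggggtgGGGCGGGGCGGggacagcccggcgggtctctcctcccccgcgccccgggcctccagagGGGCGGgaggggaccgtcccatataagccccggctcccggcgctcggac
ZEB2: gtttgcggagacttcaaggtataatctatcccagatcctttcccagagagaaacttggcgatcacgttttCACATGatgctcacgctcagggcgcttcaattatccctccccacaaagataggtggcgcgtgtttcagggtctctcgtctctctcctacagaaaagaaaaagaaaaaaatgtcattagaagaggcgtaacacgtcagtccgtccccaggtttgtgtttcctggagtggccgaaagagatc
The FN1 window held 1 cAMP response element, which starts 183 bases before the gene's start, and 6 GC boxes, some of which overlap one another. In VIM there was 1 GC box, which starts 46 bases before the start, and in ZEB2 1 E-box, CACATG, which starts 180 bases before it. Among the 35116 promoter windows of the same length, an E-box was found in 61.8%, a GC box in 42.6% and the cAMP response element in 1.65%. None of the 3 windows held CAGGTG, the E-box form preferred by the ZEB and SNAI proteins and found in 17.5% of all windows, or the TATA sequence TATAAA, found in 10.7%. The PPAR element AGGTCANAGGTCA, found in 0.0171% of all windows, and its single AGGTCA repeat, found in 12.1%, were also not matched in these 3. The windows of CDH2 and ZEB1, which are not shown, did hold some of these motifs. CAGGTG began 57 bases before the start in a ZEB1 window and 242 and 85 bases before it in another. TATAAA began 32 bases before the start in a CDH2 window. Both strands were searched for each motif, and a match is a description of letters, not of binding.

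Per kilobase of transcript, the control cells held far more vimentin RNA than any other of the 10 RNAs. The level was 1770 CPM per kb for VIM, 24.9 for FN1, 16.0 for EPCAM, 8.83 for ZEB1, 3.80 for CDH1, 2.88 for SNAI1, 2.33 for SNAI2, 0.254 for ZEB2 and 0.0967 for CDH2, and TWIST1 was at 0. The libraries of the neighbours SNAI1 and SNAI2 overlapped once divided by these lengths, and those of the other neighbours with counts did not in control. With bezafibrate, CDH1 rose in this order from the place after ZEB1 to the place before it, at 10.9 CPM per kb against 8.60 for ZEB1. FN1 came down to 17.6 CPM per kb beside EPCAM at 18.1, a gap within their SDs, and SNAI2 reached 3.41 beside SNAI1 at 3.11. The lengths are those of 1 principal transcript per gene in GENCODE release 29. With the length of all exons in its place the control order was unchanged, while with ascites EPCAM stood above FN1 and SNAI1 above CDH1, and with the drug CDH1 above FN1 and SNAI1 above SNAI2.

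**Figure D1:**
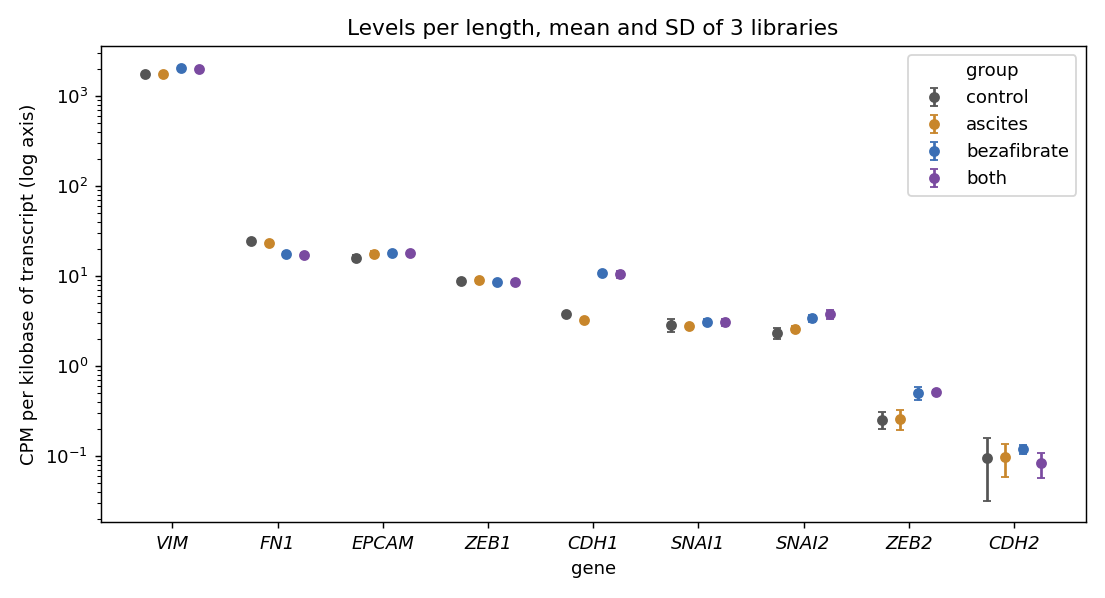
Level of each of the 10 RNAs except TWIST1, which had no counts, in CPM per kilobase of transcript (log scale) in the control, ascites, bezafibrate and combination groups. VIM is highest in every group at 1770 to 2048, and CDH1 moves from 3.80 in control to 10.9 with bezafibrate.

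The comparison of bezafibrate with control asked what the drug changed in cells without ascites, and that of the combination with ascites what it changed in cells with it. In both, RNA of CDH1, VIM, ZEB2 and SNAI2 rose and RNA of FN1 fell, while EPCAM, ZEB1 and SNAI1 did not pass the test. A gene was called at an adjusted p under 0.05 in edgeR's quasi-likelihood test over 12470 tested genes. In bezafibrate against control 4 of the 8 tested genes were called higher, where 10.1% of all tested genes were, and 1 was called lower, where 7.55% were. For the combination against ascites the counts were again 4 and 1, against 10.5% and 7.29% of all tested genes, and for the combination against control 4 and 1, against 10.3% and 7.96%. Averaged over cells with and without ascites, the drug gave 4 called higher and 1 lower, against 15% and 13.2% of all tested genes. In that average the median log2 fold change of the 8 was 0.16, and that of all tested genes was -0.00. In RNA from whole cultures, a change in the number of cells of a kind and a change in RNA per cell cannot be told apart.

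**Figure D2:**
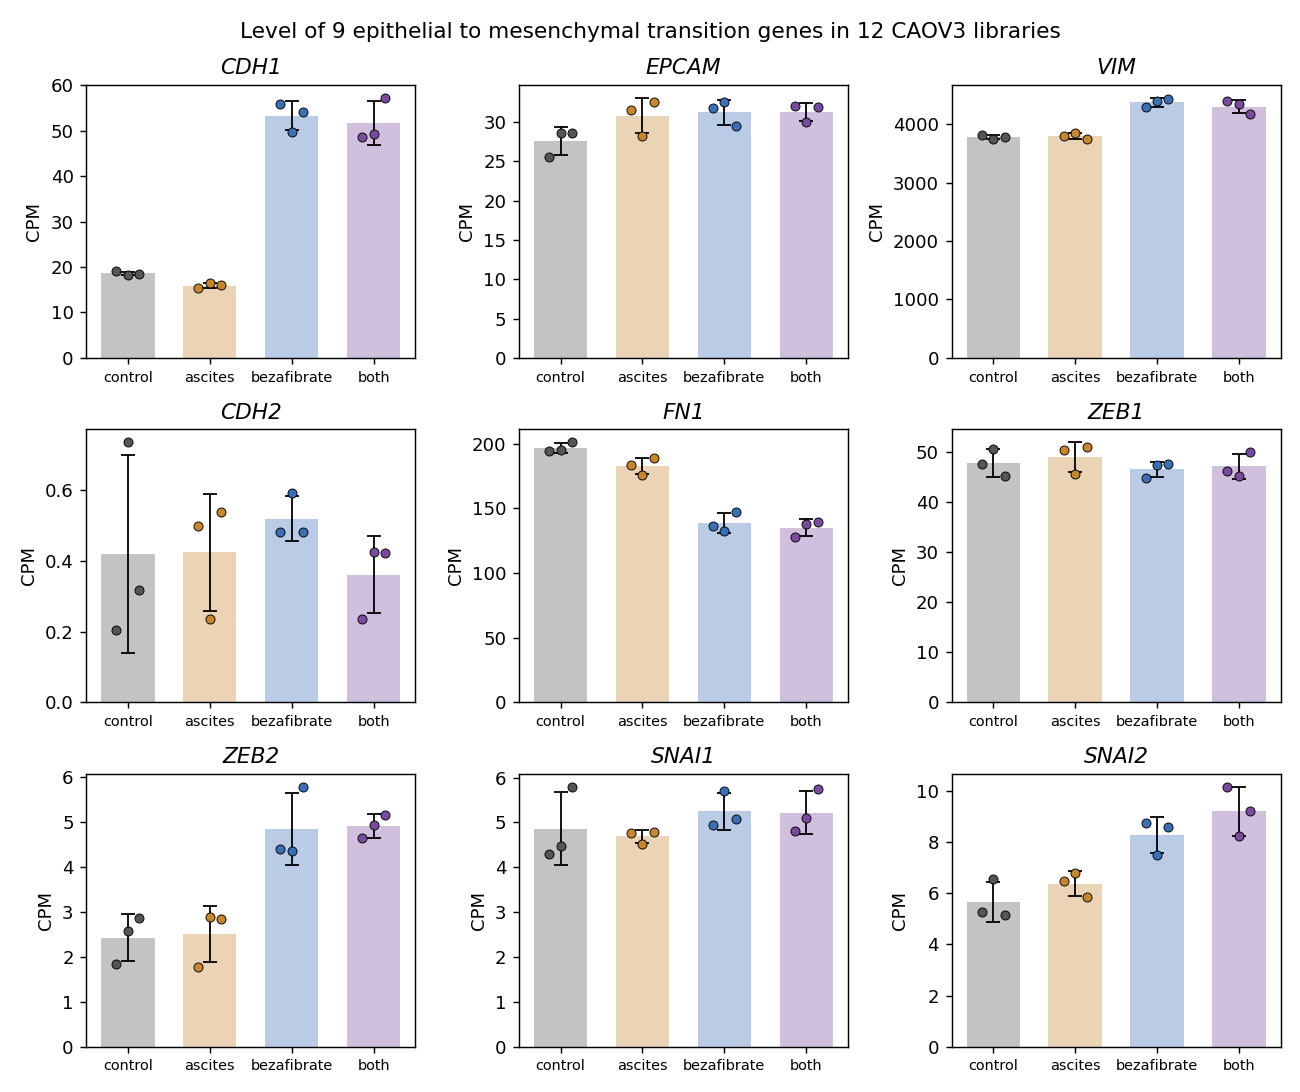
CPM of each gene except TWIST1, which had no counts, in the 12 libraries. Bars are group means, error bars SDs over 3 libraries, points libraries. The 6 CDH1 values with bezafibrate lie at 48.6 CPM or above and the 6 without it at 19.02 or below.

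Of the epithelial adhesion genes, CDH1 moved most. It was at 19.02, 18.3 and 18.5 CPM in the control libraries, 15.3, 16.4 and 16.0 with ascites, 55.9, 49.8 and 54.1 with bezafibrate, and 48.6, 49.3 and 57.2 with both. Every library with the drug lay above every library without it, and the ascites libraries all lay below the control ones. Bezafibrate raised CDH1 2.86-fold over control (1.52 on the log2 scale, SE 0.069, edgeR adjusted p = 1.49e-19, n = 3 libraries per group). In cells with ascites the rise was 3.24-fold (1.69, SE 0.073, adjusted p = 2.33e-20). The step from control to the combination was 2.77-fold (1.47, SE 0.071, adjusted p = 9.52e-19). Averaged over ascites, the log2 fold change of 1.60 stood at percentile 99.5 of all tested genes. Without combination replicate 3, the library that lay apart, the log2 fold change of the combination against ascites was 1.62.

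EPCAM, the other epithelial adhesion gene, changed less than the test could call. Its values were 25.5, 28.7 and 28.6 CPM in control, 31.5, 28.3 and 32.6 with ascites, 31.8, 32.5 and 29.5 with bezafibrate, and 32.0, 30.0 and 31.9 with both. The bezafibrate libraries lay above the control ones by a narrow margin, and the ascites libraries overlapped both. In bezafibrate against control the log2 fold change was 0.19 (95% interval 0.05 to 0.32, edgeR adjusted p = 0.0515), and in the combination against control 0.19 (adjusted p = 0.0578). In cells with ascites the drug's log2 fold change was 0.02 (interval -0.12 to 0.16). The first of these lay so near the threshold that 6 of the 20 alternative analyses called it.

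Among the mesenchymal structural genes, VIM and FN1 moved in opposite directions. VIM was at 3815, 3742 and 3782 CPM in control, 3802, 3855 and 3751 with ascites, 4288, 4398 and 4431 with bezafibrate, and 4391, 4341 and 4167 with both. The 6 libraries with the drug lay above the other 6, by a small step on a high level. Bezafibrate raised VIM 1.16-fold without ascites (0.21 on the log2 scale, SE 0.024, edgeR adjusted p = 5.80e-09) and 1.13-fold with it (0.18, SE 0.024, adjusted p = 2.42e-07). The change from control to the combination was 0.19 on the log2 scale (adjusted p = 9.20e-08). VIM's average log2 fold change of 0.19 stood at percentile 87.9 of all tested genes, so larger rises than this were common with the drug.

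FN1 was at 194, 195 and 201 CPM in control and 184, 176 and 189 with ascites. It was at 136, 133 and 147 CPM with bezafibrate and 128, 138 and 140 with both. Every library with the drug lay below every library without it, and the ascites libraries lay below the control ones. With bezafibrate FN1 fell by 0.51 on the log2 scale, to 0.704 of control (SE 0.040, edgeR adjusted p = 8.90e-13). In cells with ascites it fell by 0.44, to 0.737 of the level with ascites alone (SE 0.041, adjusted p = 6.64e-11), and from control to the combination it fell by 0.54 (adjusted p = 2.38e-13). The average change stood at percentile 2.62 of all tested genes.

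N-cadherin RNA was close to absent. CDH2 had 17 counts over the 3 control libraries, 18 with ascites, 26 with bezafibrate and 14 with both. Those sums correspond to 0.417 CPM (exact Poisson 95% interval 0.243 to 0.668), 0.435 (0.258 to 0.687), 0.519 (0.339 to 0.760) and 0.343 (0.187 to 0.575). The intervals, which cover counting error only, overlap throughout, and a change of CDH2 was not detectable at this depth.

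The E-box binding factors did not move as 1 group: ZEB2 and SNAI2 rose with the drug, ZEB1 and SNAI1 were not called and TWIST1 had no counts. ZEB2 was at 1.84, 2.57 and 2.86 CPM in control, 1.78, 2.89 and 2.83 with ascites, 4.40, 4.36 and 5.77 with bezafibrate, and 4.63, 4.93 and 5.15 with both. Its libraries with the drug all lay above those without it, on 58 to 84 counts per library against 25 to 42. Without ascites, bezafibrate raised ZEB2 by 1.00 on the log2 scale (SE 0.197, edgeR adjusted p = 0.000185), and with ascites by 0.97, which is 1.95-fold (SE 0.200, adjusted p = 0.000356). The combination against control gave 1.02 (adjusted p = 0.000200), and the average of 0.98 stood at percentile 98.9 of all tested genes.

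SNAI2, which encodes the factor also called Slug, was at 5.25, 6.54 and 5.16 CPM in control and 6.48, 6.79 and 5.86 with ascites. With bezafibrate it was at 8.74, 7.48 and 8.59 CPM and with both at 10.1, 8.24 and 9.20. Its libraries with the drug again all lay above those without. The rise was 1.46-fold both without ascites (0.54 on the log2 scale, SE 0.132, edgeR adjusted p = 0.00237) and with it (0.54, SE 0.131, adjusted p = 0.00211). From control to the combination the change was 1.64-fold (0.71, adjusted p = 9.03e-05). The average of 0.54 stood at percentile 96.6 of all tested genes.

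ZEB1 is the close relative of ZEB2, and its RNA was nearly level across the groups. It was at 47.7, 50.8 and 45.2 CPM in control, 50.5, 45.7 and 51.0 with ascites, 45.0, 47.4 and 47.6 with bezafibrate, and 46.4, 45.3 and 50.1 with both. All 4 groups overlapped. Averaged over ascites, the drug's log2 fold change was -0.05 (95% interval -0.13 to 0.03, edgeR adjusted p = 0.424).

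SNAI1, the Snail factor, was at 4.30, 4.48 and 5.79 CPM in control, 4.77, 4.53 and 4.78 with ascites, 4.94, 5.70 and 5.08 with bezafibrate, and 4.81, 5.09 and 5.74 with both. Its groups with the drug overlapped the control group, and the average log2 fold change was 0.13 (95% interval -0.09 to 0.35, adjusted p = 0.415 in edgeR). TWIST1, a factor best known from mesoderm, had 0 counts in all 12 libraries, where 3 counts over all libraries would be 0.0173 CPM.

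**Figure D3:**
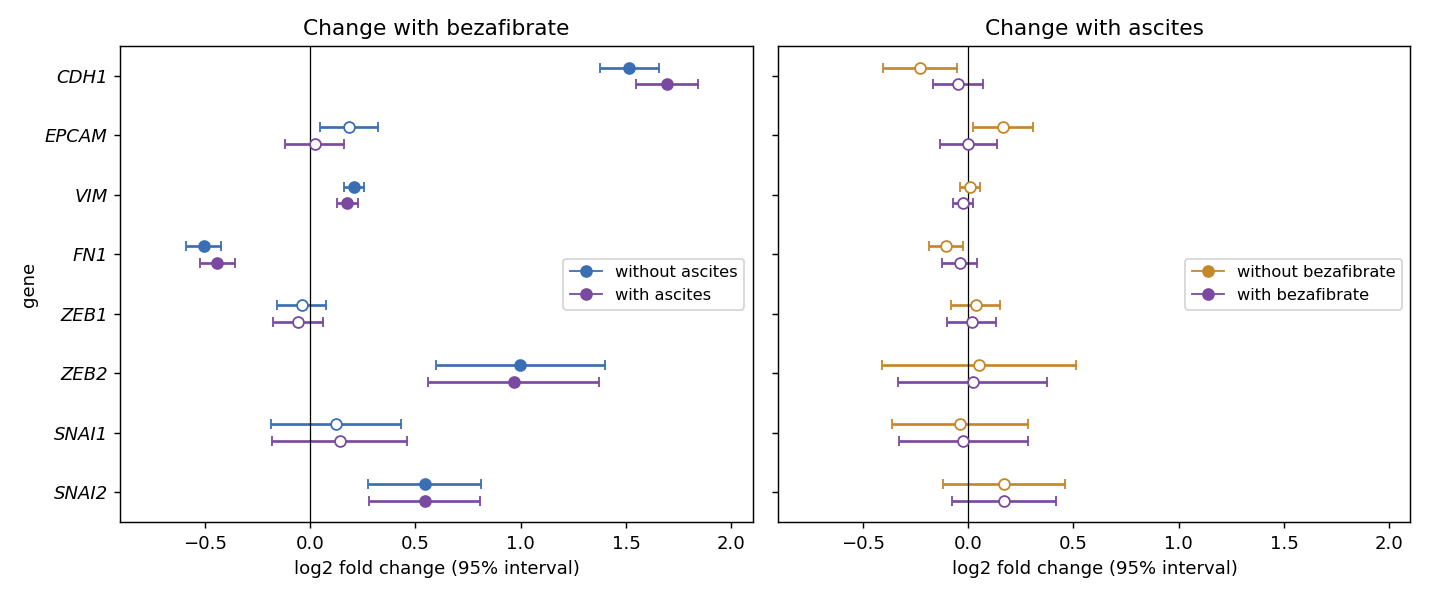
Log2 fold change of the 8 tested genes in each comparison; bars are 95% intervals, filled points passed the test and open points did not. CDH1, VIM, ZEB2 and SNAI2 lie above 0 and FN1 below 0 in both drug comparisons, and no point is filled in the ascites comparisons.

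The comparison of ascites with control asked what the fluid changed without the drug. No gene of the 8 was called at an adjusted p under 0.05 by edgeR, where 0.0882% of all tested genes were. An unadjusted p under 0.05 was found for 3 of the 8, and for 749 of all 12470 tested genes. The 3 were CDH1, FN1 and EPCAM. CDH1 averaged 18.6 ± 0.378 CPM in control and 15.9 ± 0.553 with ascites (SD, n = 3), or -0.23 on the log2 scale (SE 0.087; adjusted p = 0.722 in edgeR). FN1 averaged 197 ± 3.69 and 183 ± 6.54 CPM, a change of -0.11 (SE 0.040, edgeR adjusted p = 0.695). Both genes thus had lower means with ascites, without passing the test over all genes. For EPCAM the means were 27.6 ± 1.79 and 30.8 ± 2.26 CPM, a change of 0.17 (SE 0.070, adjusted p = 0.761 in edgeR).

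When the fluid was added to cells with the drug, no gene of the 8 was called, against 0.128% of all tested genes. None of the 8 had an unadjusted p under 0.05, where 597 of all 12470 tested genes did. There CDH1 changed by -0.05 on the log2 scale (95% interval -0.17 to 0.07), FN1 by -0.04 (-0.12 to 0.04) and SNAI2 by 0.17 (-0.08 to 0.42). Averaged over cells with and without the drug, ascites gave 0 calls among the 8, against 0.281% of all tested genes. Unadjusted p-values under 0.05 numbered 2 among the 8 and 869 among all 12470 tested genes. The 2 were CDH1, at -0.14 (95% interval -0.24 to -0.03), and FN1, at -0.07 (-0.13 to -0.01). For VIM the interval was -0.04 to 0.03 and for ZEB2 -0.25 to 0.33, so the abundant gene was bounded far more tightly than the rare one. Without combination replicate 3 the ascites average called 118 of all tested genes in place of 35, and still none of the 8.

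The interaction asked whether the drug's effect differed with ascites. It gave 0 calls among the 8 and 0% of all tested genes by edgeR, with 0 of the 8 and 445 of all tested genes at an unadjusted p under 0.05. For CDH1 the drug's log2 fold change was larger with ascites by 0.18 (95% interval -0.03 to 0.39, unadjusted p = 0.0956 and adjusted p = 0.999 in edgeR). For EPCAM it was smaller by that measure, at -0.16 (-0.36 to 0.03). Neither difference passed the test, and both intervals include 0.

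**Figure D4:**
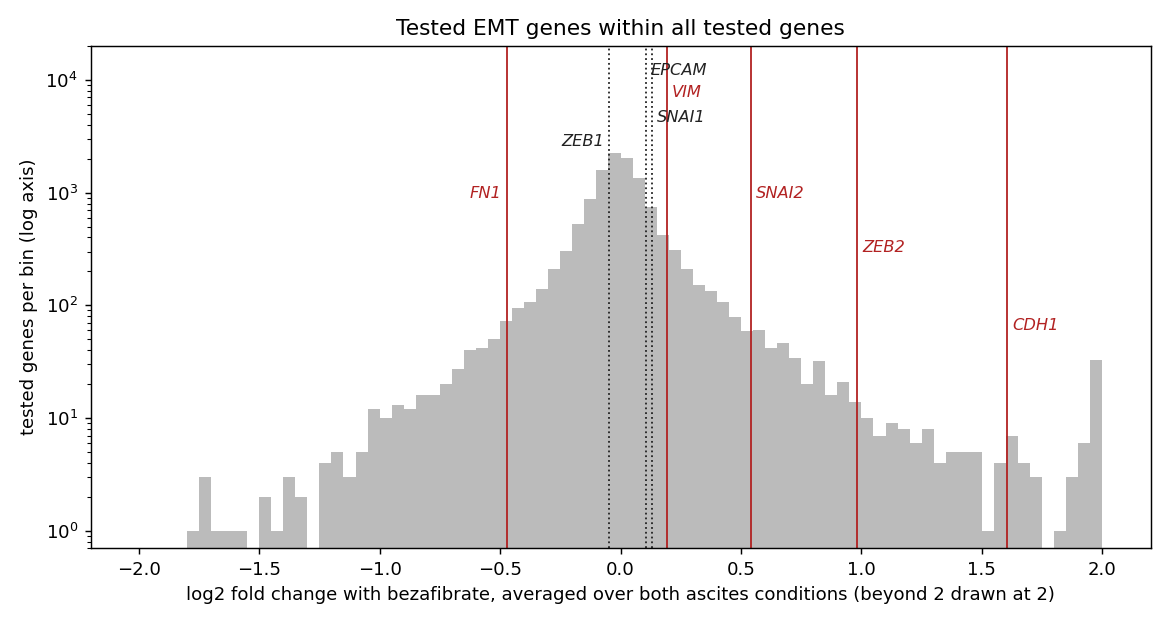
Log2 fold change with bezafibrate, averaged over ascites, for all 12470 tested genes (grey), with the 8 tested genes marked; changes above 2 are drawn at 2. CDH1 at 1.60 and ZEB2 at 0.98 lie near the upper end, FN1 at -0.47 near the lower end, and ZEB1 at -0.05 near the middle.

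Genes related to the 10 by role were read from 9 lists with 160 entries in all, some of which share genes with each other and with the 10. In the ascites comparisons, alone and averaged over the drug, 0 genes of any list were called by edgeR. For the drug averaged over ascites, the background shares are the 15% higher and 13.2% lower given above. Some genes called in that average were not called in each drug comparison alone. The 30 epithelial junction and keratin genes had 27 tested, of which 12 rose, 5 fell and 10 did not pass the test, with a median log2 fold change of 0.08. SPINT1, an inhibitor of membrane serine proteases, rose from 15.3 ± 0.753 to 34.1 ± 0.275 CPM with bezafibrate (SD, n = 3). Its target protease ST14 rose by 0.67 on the log2 scale in the average and DSC2, a desmosomal cadherin, by 0.89. ST14 was rare, at 1.18 ± 0.454 CPM in control and 1.87 ± 0.107 with bezafibrate. It was called neither without ascites nor with it (edgeR adjusted p = 0.154 and 0.164). PKP2, a desmosomal plaque protein, fell from 99.9 ± 1.84 to 63.7 ± 3.28 CPM, CLDN7 of tight junctions fell by 0.46, JUP (plakoglobin) by 0.20 and TJP1 (ZO-1) by 0.14. CLDN4 of tight junctions, named above as a serous marker and also on this list, rose by 0.66. The list therefore held desmosomal and tight junction genes that moved both ways.

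Of 12 regulators of the epithelial state, 9 were tested, 5 rose and 1 fell (median 0.28). KLF4, a zinc finger factor of differentiating epithelium, stood at 40.9 ± 3.30 CPM in control and 76.5 ± 1.93 with bezafibrate, a rise of 0.86 in the average. GRHL3 rose by 0.93, ELF3 by 0.36 and KLF5 by 0.28. The other riser was the splicing regulator ESRP1 at 1.16, which stayed under 1 CPM and was named after its values were seen. CDX2 fell by 0.27.

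The 28 mesenchymal genes had 17 tested, with 3 called higher and 8 lower (median -0.13). Beside VIM, S100A4, which encodes a calcium-binding protein, rose by 0.06 in the average, a call lost under upper-quartile scaling. Beside FN1, the matrix proteoglycan gene VCAN fell from 443 ± 16.8 to 313 ± 9.16 CPM, and the collagen genes COL1A1 and COL3A1 fell by 0.68 and 0.84 from means under 7 CPM. The fibroblast marker sum given above, most of it LUM, was also lower with the drug. All 3 tested markers of that list, COL1A1, COL3A1 and LUM, were called lower. All 3 are also among the 28 mesenchymal genes, so the marker sum is not separate from them. A part of fibroblasts in the change of the matrix genes was not tested.

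The 16 EMT transcription factors had 10 tested, 3 higher and 3 lower (median -0.06). Beside ZEB2 and SNAI2, FOXC1 rose by 0.39. PRRX1, a homeobox factor of mesenchyme, fell from 14.2 ± 1.01 to 9.09 ± 0.839 CPM with bezafibrate, SOX4 fell by 0.20 and SOX9 by 0.12. The 14 cofactors with which these factors act were all tested, 2 higher and 6 lower (median -0.02), and their changes were small. KDM1A, the histone demethylase recruited by SNAI1, rose by 0.14 and its partner RCOR1 by 0.12. RCOR1 was called in cells with ascites (0.20) but not in those without it (0.03, edgeR adjusted p = 0.665). LOXL2 fell by 0.35, SIRT1 by 0.16, AJUBA by 0.12 and CTBP2 by 0.10.

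The 17 cadherin and catenin adhesion genes had 15 tested, 3 higher and 6 lower (median -0.07). NECTIN1, a junctional immunoglobulin-like protein, rose with bezafibrate from 53.1 ± 4.73 to 88.2 ± 2.28 CPM in cells with ascites. PCDH1 rose by 0.46, and CTNNB1 (beta-catenin), which binds the tail of E-cadherin, rose by 0.07, a call lost under upper-quartile scaling. In contrast to CDH1, the cadherins CDH6 and CDH17 fell. CDH17 averaged 246 ± 5.56 CPM in control and 171 ± 4.84 with bezafibrate, and CDH6 averaged 25.3 ± 1.65 and 16.4 ± 0.630. AFDN (afadin), which links nectins to the actin cytoskeleton, fell by 0.14 and ARHGAP35 by 0.09.

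The 15 receptors and matrix partners of fibronectin had 14 tested, 7 higher and 2 lower (median 0.08), whereas FN1 itself fell. ITGAV, the alpha chain of several fibronectin-binding integrins, rose from 563 ± 6.11 to 735 ± 18.96 CPM with bezafibrate, and the chains ITGA5 and ITGB6 rose by 0.20 and 0.23 in the average. The syndecan SDC4 rose by 0.45, while SDC1 fell by 0.13 and the hyaluronan receptor CD44 by 0.23. The 12 TGF-beta ligands, receptors and SMADs were all tested, 2 higher and 5 lower (median -0.01). Of the ligands, TGFB2 fell from 58.2 ± 0.694 to 37.0 ± 1.68 CPM with bezafibrate and TGFB3 fell by 0.49 in the average. TGFB3, at 5.70 ± 0.291 CPM in control, was called lower with ascites (-0.72) but not without it (-0.26, edgeR adjusted p = 0.284). Of the receptors, TGFBR2 fell by 0.13 and the co-receptor TGFBR3 rose by 0.41. Further down the pathway, SMAD4 rose by 0.12 and SKI, a repressor of SMAD signalling, fell by 0.11.

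The 16 other intermediate filament genes and their linker were all tested, 5 higher and 2 lower (median 0.10). KRT7 rose from 762 ± 6.53 to 1118 ± 41.7 CPM with bezafibrate, and KRT19 rose by 0.26 in the average. PLEC (plectin), which links filaments to junctions, rose by 0.25 and the lamin gene LMNA by 0.20, while LMNB1 and LMNB2 fell by 0.12 and 0.13. RNA of the keratins KRT7 and KRT19 and of vimentin was thus higher in the same groups. The more abundant keratins KRT8 and KRT18 were not called, at -0.03 and -0.02 in the average (edgeR adjusted p = 0.139 and 0.353).

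**Figure D5:**
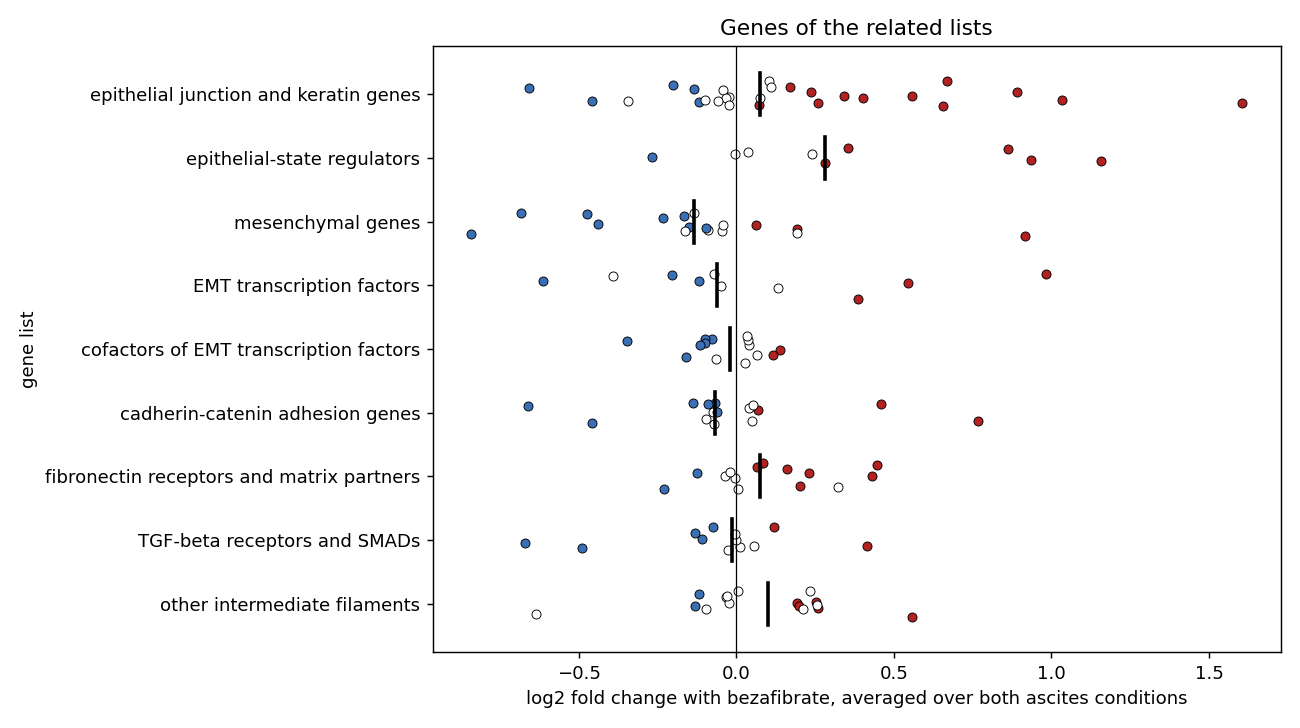
Log2 fold change with bezafibrate, averaged over ascites, of each tested gene in 9 lists; red points were called higher, blue lower and white not called, and black bars are list medians. Medians run from -0.13 for mesenchymal genes to 0.28 for regulators of the epithelial state.

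The genes whose log2 CPM ran most like a called member's across the 12 libraries were found by Pearson's r. The search covered the tested genes with a symbol and a mean of 1 CPM or more. It is a description that rests mainly on the gap between libraries with and without the drug. TIMP3 (r = 0.996), WSB2 (0.995) and STON2 (0.995) were nearest to CDH1. VIM was followed most closely by EFHD2 (0.991), COL6A1 (0.990) and LFNG (0.989). FN1 was followed by VCAN (0.993), SPTB (0.989) and MATN3 (0.986), and VCAN is the proteoglycan gene described above. The lower r for the rarer genes was 0.958 for ZEB2 with HABP4 and 0.958 for SNAI2 with ZNF354A, followed by FGD6 (0.952) and GOLIM4 (0.949) for ZEB2 and by SLC41A2 (0.942) and PTGES (0.940) for SNAI2.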

How the data were processed

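RNA-seq of CAOV3 cells gave 12 libraries in 4 groups of 3, grouped by the labels. The authors deposited whole-number counts per gene for each library. Per the submitters' processing notes, Trimmomatic 0.39, STAR 2.7.9a, RSEM 1.3.3, DESeq2 1.28.1 and GRCh38 were used, with no role given. If RSEM made the counts, they are rounded estimates, and reads of similar genes are shared out by its model. The annotation and strandedness are not given in the sources used here, so for CDH1, CDH2, VIM, ZEB1, ZEB2 and TWIST1, which overlap antisense genes in GENCODE release 29, reads from both partners cannot be told apart.

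The low-count filter was that of edgeR 4.0.16 (filterByExpr, with a minimum count of 10 and a minimum total of 15), which left 12470 genes and removed 7207. Library sizes were scaled by TMM, except for the CPM of group sums of CDH2 and the floor of TWIST1, which use raw totals. Means per group were fitted over all 12 libraries (8 residual degrees of freedom), and contrasts were tested with the robust quasi-likelihood F test (R 4.3.3) and Benjamini-Hochberg adjustment over the tested genes. Standard errors were taken as the size of the log2 change over the root of F. A chi-square per degree of freedom of 1.44 to 4.45 between replicates showed no library deposited in duplicate. Depth was high enough that spread between replicates, with a common biological coefficient of variation of 3.06%, limits abundant genes. Counting error limits CDH2, ZEB2, SNAI1 and SNAI2 most. It also weighs on CDH1, EPCAM and ZEB1, which had 210 to 928 counts per library.

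The 10 genes and the lists were chosen with earlier results of these data known. All list genes were found in the tables, and 1 called gene of the lists is counted but not reported here by name. Named from each list, in each direction, are the called genes of largest change, at most 4, among those averaging 1 CPM or more, and for each called member the 3 genes of highest r on log2 CPM. The fit was checked on simulated counts. Alternatives were 2 other scalings, 2 other filters, DESeq2 1.42.0, a fit of only the groups compared, a replicate block, a threshold of 0.01 and leaving out each library.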

Additional observations from a re-analysis of the deposited data

How the results depend on the processing

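A selection of 46 results for the 8 tested genes was recomputed under up to 20 alternatives, which gave 898 values. The other pairs of gene and comparison are not in these counts. Of these, 879 kept their direction and their side of the threshold, 7 newly passed it and 12 changed sign. The 7 were all EPCAM: in bezafibrate against control it was called with genes of at least 1 CPM in 3 libraries (edgeR adjusted p = 0.0467), with only the groups compared (0.0287), and without ascites replicate 2 (0.0448), bezafibrate replicate 3 (0.0313), combination replicate 1 (0.0443) or combination replicate 3 (0.0318), and in the combination against control without combination replicate 2 (0.0496). The sign changes all came from leaving out 1 library and touched no called value: ZEB1 in bezafibrate against control ranged from -0.076 to 0.0055, EPCAM in the combination against ascites from -0.033 to 0.062, FN1 and CDH1 in the combination against bezafibrate from -0.071 to 0.0037 and from -0.12 to 0.0020, and in the ascites average ZEB2 from -0.047 to 0.14, SNAI1 from -0.072 to 0.040 and VIM from -0.014 to 0.0035. The calls of CDH1, VIM, FN1, ZEB2 and SNAI2 with the drug held under every alternative run for them, with a highest adjusted p of 0.0305, for SNAI2 in the combination against ascites.

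A fit with the replicate block called 5 of the 8 in each drug comparison and 0 in the ascites comparisons and the interaction. Residuals of libraries with the same number correlated from -0.125 to 0.0896, so the numbers were not taken as pairs. With no filter, calls over all genes were 59 for ascites against control, 52 for the combination against bezafibrate, 36 for the interaction and 113 for the ascites average. With only the groups compared they were 33 and 7 for the first 2, and without 1 library each they ranged from 3 to 24, from 9 to 28 and, for the ascites average, from 21 to 118. At an adjusted p under 0.01 the drug comparisons gave 1504 without ascites, 1475 with ascites and 2456 averaged. Of the tested genes, depth limits ZEB2, SNAI1 and SNAI2 most, at under 11 CPM, and CDH2 and TWIST1 could not be tested.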
